A study of Mus musculus with 45 samples.

Results

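Zinc-finger genes named Zfp with a number were followed in mouse neural progenitor cells, in embryonic stem cells and in cells on the way from the former to the latter. They were chosen by level: of 344 such genes among 23575 genes, 225 had a mean of at least 5 CPM (reads of a gene scaled to the reads of its library) over the 11 R10 libraries of progenitors and stem cells, and these 225 are called the members. Another 118 lay below that level, and the rule also leaves out Zfp42, a marker of pluripotency, and Zfp352. R10 is one of 2 library types. The 22 R9 libraries were direct cDNA of poly(A)-enriched RNA read on R9.4.1 flow cells, and the 23 R10 libraries were PCR cDNA of total RNA read on R10.4.1 flow cells.

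The progenitors were derived from Oct4-GFP stem cells (line O4G), which are R1 stem cells with GFP driven by the Oct4 promoter. They were wild type (WT) or carried a stably transfected, doxycycline-inducible factor set of genotype OKMS-Luciferase-AS or OKS-Luciferase-AS, and were grown in NPC medium. R9 held 2 WT, 1 OKMS and 1 OKS progenitor library and R10 the same numbers. WT embryonic stem cells in 2i-LIF (LIF plus kinase inhibitors, no serum) gave R9 libraries of lines O4G and R1 (1 each) and R10 libraries of O4G (2), R1-Clone3 (2) and R1 (3). OKMS and OKS cells in FBS-LIF medium with doxycycline, called serum-LIF-dox here, gave 1 R9 library each at days 2, 4, 6, 10, 14 and 20. R10 covered days 2, 6 and 18 for both sets, and days 4 and 10 for OKMS alone. Cultures in 2i-LIF gave R9 libraries of OKMS at days 14 and 20 and of OKS at day 20, after a move at day 6, and R10 libraries of OKMS and OKS at day 18. WT progenitors after 2 days in serum-LIF-dox gave 1 R9 and 2 R10 libraries. Stem cells and progenitors differ in medium as well as in state, and these cannot be told apart. Nothing in the labels says that libraries of a group came from separate cultures, so p-values measure only the spread between these libraries.

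Proteins of this family bind nucleic acid through C2H2 zinc fingers, small loops in which a pair of cysteines and a pair of histidines hold a zinc ion. Many of them also carry a KRAB domain at the amino end, which recruits the corepressor TRIM28 and, through it, the histone methyltransferase SETDB1. Early embryos and stem cells use this system to silence retroelements and to keep DNA methylation at imprinted loci. KRAB zinc-finger genes arose by repeated duplication and lie in clusters of close copies. Other zinc-finger genes outside the KRAB class act as ordinary transcription factors or bind RNA.

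The libraries held 448250 to 1391635 reads in R9 and 567129 to 4245818 in R10. Each R9 library detected 197 to 223 members above 0, and each R10 library 206 to 225. The summed level of 8 progenitor markers was 3277 to 5697 CPM in R9 progenitors and 154 and 155 CPM in R9 stem cells, with 5 of the 8 called lower. Sox1 and Sox2 were called higher in stem cells, and Sox1 was at 0 in all progenitor libraries of both types. The summed level of 8 pluripotency markers was 14.8 to 35.4 and 12464 to 13906 CPM. In R10, 6 of the 7 stem cell libraries and all day 18 libraries carry a library name in their label while no progenitor library does, so library set and cell state nearly coincide there. Mitochondrial genes took 0.124% of reads in 1 R10 stem cell library, R1 replicate 3, the 1 without a library name, and up to 2.35% in the others.

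Member levels in the 11 libraries of the rule ran from 5.01 to 423 CPM with a median of 13.5 CPM, and 138 members reached 10 CPM. The members nearest the limit were Zfp970 at 5.01, Zfp640 at 5.04 and Zfp691 at 5.10 CPM. Just outside lay Zfp647 at 4.91, Zfp605 at 4.89 and Zfp799 at 4.77 CPM. In all 45 libraries 141 members were above 0. The members of highest CPM, a scale that is not divided by transcript length, were Zfp207 (a spindle and splicing factor), Zfp706, Zfp106 (an RNA-binding protein), Zfp57 and Zfp664.

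A protein was found for 222 members in GENCODE M21. A KRAB A-box pattern was matched in 80 of them and not in 142. The median number of C2H2 matches was 11 with the KRAB pattern and 9 without, and the maximum was 36. The 6 members with no C2H2 match were Zfp36, a CCCH-type RNA-binding protein, and Zfp185, Zfp330, Zfp365, Zfp703 and Zfp839. The pattern misses some KRAB proteins. Zfp57, a KRAB protein by common knowledge, had no match and is counted with the rest. In 24 members more than 50% of the 25-base words of their transcripts also occur in another gene, so reads of these near-copies could be split or misplaced by the authors' counting, and their single-gene values are uncertain.

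R9 libraries did not enter the rule, so the comparison of stem cells with progenitors was tested there. Nothing in the labels says that R9 and R10 libraries of the same cells came from separate cultures. The R9 test may therefore not be independent of the rule. Zinc-finger genes moved both ways: 40 members rose and 39 fell of 225 tested, by limma at an adjusted p under 0.05 and a difference of at least 1 on the log2(CPM + 1) scale. That is 35.1% of members beside 36% of all 15746 genes tested, with 17.6% of all genes higher and 18.4% lower. Without the O4G stem cell library 28 members were higher and 19 lower, and without the R1 library 24 and 24. Leaving out either one sets 1 stem cell library against 4, and the lone library is then assumed to vary like the progenitors, here and for each member below. The median difference was 0.02 over members and -0.07 over all genes. Counted as a whole, the members changed about as often as genes in general. That count includes members whose entry the rule tied to 1 arm. Of the 40 that rose, 25 had reached 5 CPM in R10 stem cells alone, and of the 39 that fell, 16 in R10 progenitors alone. Among the 159 members that reached it in both R10 arms, 15 rose and 23 fell. In bulk RNA, fewer cells that express a gene and less RNA of it per cell cannot be told apart.

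The members that rose most were at or near 0 in progenitors. Of the 10 largest rises 9, all but Zfp57, had reached the 5 CPM of the rule in R10 stem cells alone. The rule therefore tied their entry to the arm where they are high, and their R9 values repeat that difference in other libraries. Zfp992, a KRAB zinc-finger gene on chromosome 4 (146287000 to 146466222), was at 0 in all 4 R9 progenitor libraries and at 87.1 and 74.5 CPM in the O4G and R1 stem cell libraries, which is at least 83.9-fold higher when a floor of 3 reads is set for the progenitor arm. Its log2 difference was 6.35 ± 0.27 (SE, adjusted p = 3.71e-05). The groups did not overlap, and the R10 libraries, given as a description, held 0 to 0.439 CPM in progenitors and 20.0 to 73.6 CPM in stem cells.

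Zfp296, a factor linked to pluripotency and reprogramming (chromosome 7, 19577256 to 19580656), was at 1.34 CPM in WT progenitor replicate 1 and at 0 in the other progenitor libraries, against 71.0 and 87.5 CPM in stem cells. The difference was 6.01 ± 0.46 (SE, adjusted p = 0.00016). Unlike Zfp992 it shares no 25-base word with another gene, so its reads are not in doubt in that way.

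Zfp57, which keeps methylation at imprinting control regions (chromosome 17, 36977190 to 37010756), was already present in progenitors. Its levels there were 2.67 and 17.4 CPM in WT, 10.8 CPM in OKMS and 6.75 CPM in OKS libraries, against 139 and 214 CPM in stem cells. The difference was 4.29 ± 0.63 (SE, adjusted p = 0.00211), and it was 3.98 with an adjusted p of 0.0673 when the R1 stem cell library was left out. No progenitor library came near the stem cell levels in R9, nor in R10, where the ranges were 7.03 to 21.9 and 216 to 325 CPM.

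The other members among the 10 largest rises were Zfp981 (5.51), Zfp988 (5.15), Zfp990 (4.93), Zfp978 (4.72), Zfp985 (4.70), Zfp936 (4.43) and Zfp982 (4.08), as log2 differences. All 7 carry the KRAB pattern. Zfp936 on chromosome 7 had no R9 reads in progenitors and stood at 22.7 and 18.6 CPM in stem cells. Zfp990 was at 0 and at 28.4 and 30.7 CPM, and Zfp988 at 0 and at 42.6 and 27.9 CPM. Against the same floor these were at least 21.5-fold, 30.7-fold and 36.6-fold higher. Apart from Zfp936 these genes lie on chromosome 4, and the deposited spans of Zfp988 and Zfp978 overlap, so the reads of that pair are not separable with certainty.

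**Figure D1:**
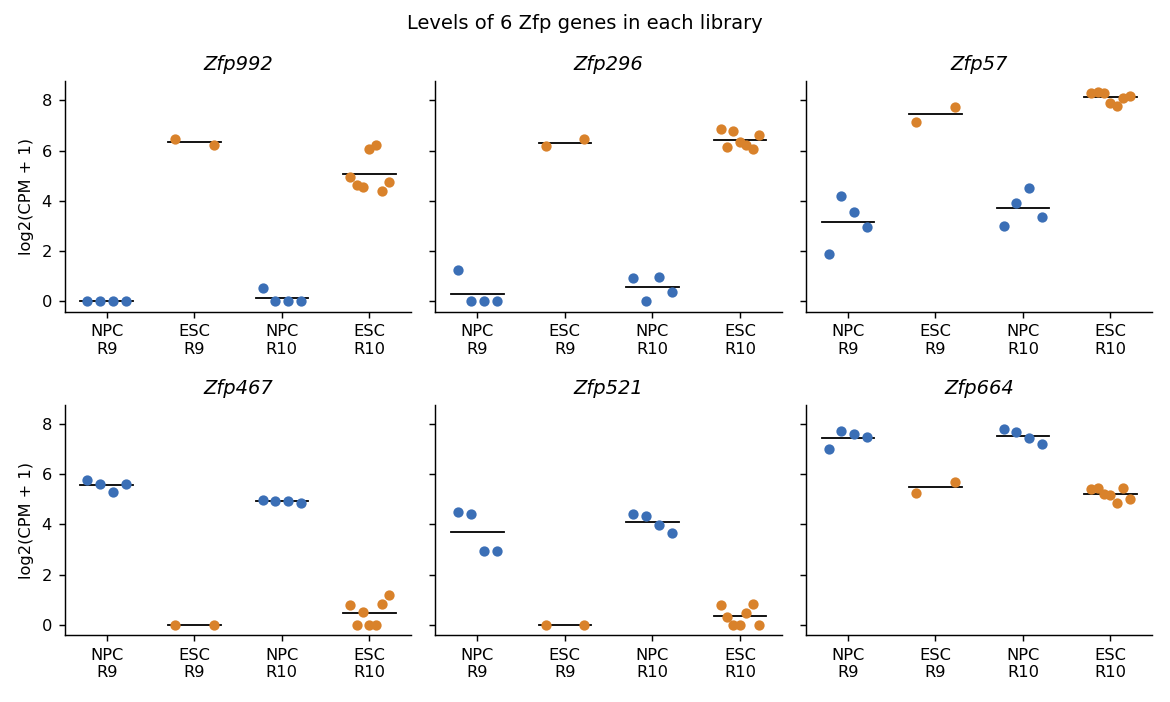
Level of 6 members, as log2(CPM + 1), in each progenitor (NPC) and stem cell (ESC) library of R9 and R10; each point is 1 library and lines mark means. Zfp992, Zfp296 and Zfp57 are high in every stem cell library, and Zfp467, Zfp521 and Zfp664 are high in every progenitor library, with no overlap in either library type.

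The members that fell carried no KRAB pattern among the 10 largest falls. Of these 10, 7 had reached the level in R10 progenitors alone (Zfp467, Zfp521, Zfp703, Zfp362, Zfp629, Zfp334 and Zfp651), so the rule tied their entry to that arm. Zfp467, a regulator of osteoblast and fat cell fate (chromosome 6, 48427560 to 48445861), was at 53.5 and 48.4 CPM in WT, 37.7 CPM in OKMS and 47.2 CPM in OKS progenitors and at 0 in both stem cell libraries. It was at least 33.2-fold lower in stem cells, with a log2 difference of -5.57 ± 0.25 (SE, adjusted p = 3.91e-05). The R10 libraries lay at 28.1 to 30.8 CPM in progenitors and 0 to 1.31 CPM in stem cells.

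Zfp521, which promotes entry into the neural lineage, was at 21.4 and 20.3 CPM in WT progenitors, 6.73 CPM in OKMS, 6.75 CPM in OKS and 0 in both stem cell libraries. Among these R9 libraries alone, the WT values stood above the factor-carrying ones before any doxycycline, with 1 library each of OKMS and OKS. The difference was -3.70 ± 0.58 (SE, adjusted p = 0.00278), and the adjusted p was 0.0584 without the O4G and 0.0598 without the R1 stem cell library. Zfp664 fell from between 126 and 212 CPM to 36.9 and 51.2 CPM, a difference of -1.97 ± 0.25 (SE, adjusted p = 0.00113). It kept a clear level in stem cells, unlike Zfp467 and Zfp521.

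The other members among the largest falls were Zfp703 (-3.39), Zfp362 (-2.96), Zfp629 (-2.64), Zfp334 (-2.61), Zfp365 (-2.55), Zfp462 (-2.52), Zfp651 (-2.40) and Zfp319 (-2.34). Zfp629 had the largest SE of these, with 14.7, 6.78, 16.2 and 1.69 CPM in the progenitor libraries and 0 and 0.931 CPM in stem cells. Its adjusted p was 0.04, and it was 0.322 without the O4G and 0.176 without the R1 stem cell library. Zfp651 missed the threshold without the O4G library, at -2.20 with an adjusted p of 0.0596. Zfp334 missed it by DESeq2 on the recovered reads, with an adjusted p of 0.0531.

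Role lists drawn from common knowledge showed where named functions fell. Of the imprint and retroelement list, 6 of 9 genes were members, of which 4 rose and 1 fell, beside 17.6% and 18.4% of all genes. Besides Zfp57 these were Zfp568, Zfp819 and Zfp809 upward and Zfp445 downward. Zfp568, which represses a placental transcript of Igf2, went from 8.02, 8.71, 6.73 and 3.37 CPM to 50.2 and 50.3 CPM, a difference of 2.80 ± 0.37 (SE, adjusted p = 0.00143). Zfp819, linked to silencing of retroelements in stem cells, had no R9 reads in progenitors and 7.57 and 8.38 CPM in stem cells. Only its R10 stem cell mean had reached the 5 CPM of the rule. Zfp809, which silences proviruses of the murine leukaemia type, rose by 1.26 from between 3.87 and 5.38 CPM to 9.47 and 15.8 CPM. Without the R1 stem cell library the Zfp809 difference was 0.92 with an adjusted p of 0.0799, and by DESeq2 the adjusted p was 0.112. The partner of Zfp57 in imprint maintenance, Zfp445, went the other way in R9 at -1.15 (adjusted p = 0.0413), and its R10 difference was 0.01. The call was lost in several settings, with an adjusted p of 0.293 without the O4G and 0.0613 without the R1 stem cell library, and 0.106 by DESeq2. The R9 difference of Zfp932 was -0.39 (adjusted p = 0.127).

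All 7 genes of the pluripotency-linked list were members, and 1 rose and 1 fell, near the 17.6% and 18.4% of all genes. Zfp296 was the former. The latter was Zfp462, which restrains differentiation, at 22.9 to 25.3 CPM in progenitors and 1.89 and 5.58 CPM in stem cells. The other 5 did not pass. Zfp207 was at 231, 368, 295 and 287 CPM in progenitors and 305 and 234 CPM in stem cells, a difference of -0.13 within the spread of the progenitors. Zfp706 was at 226 to 292 CPM and 359 and 441 CPM, a difference of 0.66 under the fold limit. Zfp143 (1.09), Zfp217 (0.73) and Zfp281 (1.20) missed the adjusted p, at 0.0658, 0.106 and 0.409.

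Of the neural and glial list, 6 of 10 genes were members and 5 of them fell, beside 18.4% of all genes, with Zfp335 at a difference of 0.02. Summed astrocyte markers were at 260 to 282 CPM in R9 progenitors and 35.4 and 36.0 CPM in stem cells, and neuron markers at 242 to 384 and 82.4 and 121 CPM. The latter sum was mostly Map2 in progenitors and mostly Tubb3 in stem cells, and of 4 neuron markers tested Map2 was called lower and Tubb3 higher. Their part in these falls was not tested. Beside Zfp521 and Zfp703, which had entered through progenitors alone, the 5 were Zfp365, Zfp24 and Zfp609. Zfp365, a partner of the scaffold protein DISC1, went from 13.4, 16.5, 20.2 and 25.3 CPM to 1.89 and 2.79 CPM. Zfp24, needed for myelination by oligodendrocytes, differed by -1.21, with an adjusted p of 0.0618 without the O4G and 0.137 without the R1 stem cell library. Zfp609, which acts in migrating cortical neurons, differed by -1.42 with an adjusted p of 0.0976 without the R1 library. Of the 7 RNA and ribosome genes 1 was called each way, again near the shares over all genes. Zfp622, a factor of large-subunit ribosome assembly, rose and Zfp326, a factor of transcript elongation and splicing, fell. Zfp622 went from 40.7 to 43.8 CPM in progenitors to 107 and 131 CPM, a difference of 1.47 (adjusted p = 0.0004), while its R10 difference was 0.02. Zfp326 fell by 1.07, and missed the threshold without the O4G or the R1 stem cell library (adjusted p = 0.182 and 0.219). Zfp598, which senses collided ribosomes, differed by 0.95, and Zfp36, Zfp106, Zfp346 and Zfp638 by -0.06, 0.42, 0.03 and 0.51.

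The R10 comparison used the libraries of the rule and is a description. There 53 members were called higher and 38 lower, with 45.8% of all 15415 genes called. Of the 79 members called in R9, 77 had the same sign in R10, and 61 were called in both, which is 77.2% of the R9 and 67.0% of the R10 calls. Of all genes called in R9, 97.5% had the same sign in R10. Whether R9 and R10 libraries came from separate cultures is not given in the labels. Several members stood apart in a single R10 library, R1 replicate 3. Zfp593, a factor of ribosome assembly, was at 66.1 CPM there and at 7.55 to 19.1 CPM in the other 6 stem cell libraries, against 26.3 to 37.6 CPM in progenitors. Its difference was -0.81 over all libraries and 1.06 for that library against the progenitors, and the R9 difference was 1.37. Zfp622 was at 43.7 CPM in the same library and at 12.8 to 19.8 CPM in the other stem cells. The R10 difference of Zfp638, an RNA-binding splicing factor, was 1.42 over all libraries and -0.20 for that library.

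Members with the KRAB pattern and members without it moved in different proportions. In R9, 28 of 80 KRAB members rose and 10 fell (35.0% and 12.5%), with a median difference of 0.71. Of the 142 members without the pattern, 11 rose and 29 fell (7.75% and 20.4%), with a median of -0.22. The percentages over all genes were 17.6 and 18.4. Summed over the 80 KRAB members, the level was 592 to 687 CPM in R9 progenitors and 1130 and 1230 CPM in stem cells. Without the 11 members of a chromosome 4 cluster described below the sums were 580 to 674 and 797 and 858 CPM, and over the 46 KRAB members that reached 5 CPM in both R10 arms 499 to 579 and 642 and 702 CPM. The sum over the other members overlapped, at 3468 to 4068 and 3489 and 3786 CPM. The number of fingers was only weakly related to the difference, with Pearson's r of -0.03 between finger matches and the R9 difference across 222 members, -0.11 within the 80 with the pattern and -0.13 within the others. Members are not independent of each other.

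The rule admits a gene that is high in only 1 arm, so the split was read by how members came in. In 159 members both R10 arm means reached 5 CPM. Of the 46 KRAB members among them 8 rose and 6 fell in R9, with a median of 0.04. Of the 112 others 7 rose and 17 fell, with a median of -0.20. In 43 members the stem cell mean alone reached 5 CPM, and 29 of these carried the KRAB pattern. Of those 29, 20 rose in R9 with a median of 2.82, and of the 12 without it 4 rose with a median of 1.15. In 23 members the progenitor mean alone reached it, and 5 of these carried the pattern. The higher median of KRAB members thus lay mostly in genes that were low in progenitors, whose entry the rule itself tied to stem cells.

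**Figure D2:**
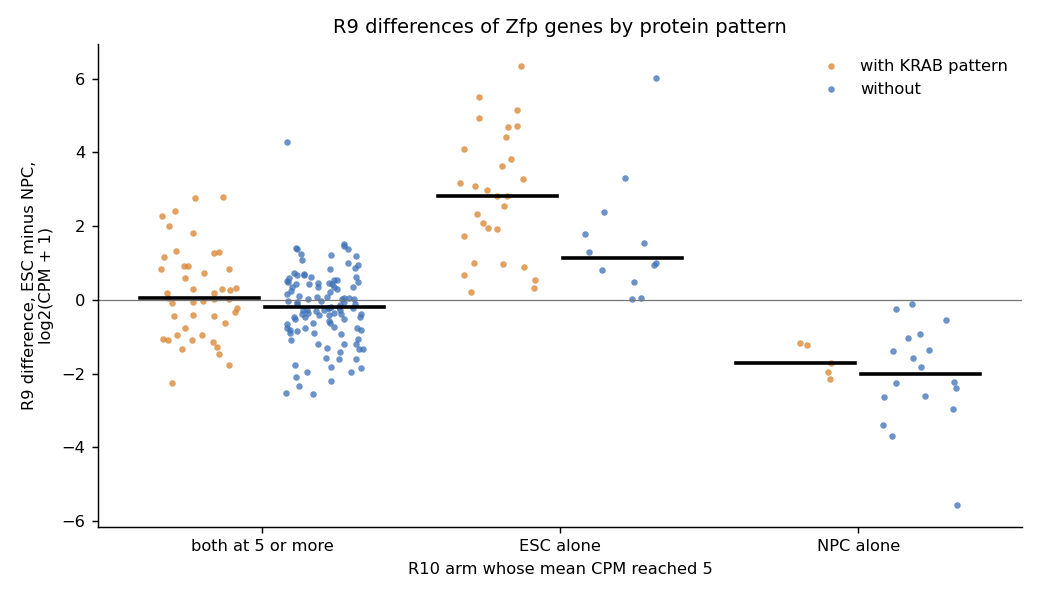
R9 log2 difference of stem cells minus progenitors for each member (points), by KRAB pattern and by which R10 arm mean reached 5 CPM; bars mark medians. KRAB members that reached the level in stem cells alone have a median of 2.82, while those that reached it in both arms have a median of 0.04.

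Genomic neighbours were grouped next. Runs of Zfp genes less than 250 kb apart with at least 3 members gave 17 clusters with 90 members, 59 of them with the KRAB pattern, and 9 of the clusters lie on chromosome 7. Inside clusters 21 members rose and 14 fell in R9, with a median of 0.34. Among the 135 members outside, 19 rose and 25 fell, with a median of -0.12. Over all genes 17.6% rose and 18.4% fell. In 5 clusters, of 3 to 11 members each, every member had the same sign. How often this occurs among other neighbouring genes was not computed. In the clusters of Zfp59 and of Zfp977 and in that on chromosome 4, most members had entered through stem cells alone, which bears on their sign. The cluster of largest median was one on chromosome 4 (146097246 to 147848435, mm10), in which all 11 members rose. Of the 21 members that rose inside clusters 15 had entered through stem cells alone, and 10 of these are on chromosome 4. Among members at the level in both arms 6 rose and 8 fell inside clusters and 9 rose and 15 fell outside.

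Some clusters on chromosome 7 shifted less. The 5 members called higher in the first 2 runs below (Zfp977, Zfp976, Zfp975, Zfp936 and Zfp819), and Zfp715, Zfp59 and Zfp850, had reached the level in R10 stem cells alone, which bears on the medians of these runs. The run of Zfp141, Zfp977, Zfp976 and Zfp975 (42473380 to 42692798) had 3 members that rose and a median of 2.24. Its summed level was 6.69, 10.6, 17.5 and 6.75 CPM in R9 progenitors and 45.4 and 50.3 CPM in stem cells. The run of Zfp936, Zfp715, Zfp719 and Zfp819 (43177565 to 43618285) had 2 that rose and a median of 1.69, with sums of 5.06 to 12.6 and 35.0 and 37.2 CPM. The run of Zfp60, Zfp59 and Zfp850 (27731377 to 28014170) had a median of 1.91, but each member missed the adjusted threshold: Zfp60 (0.33, adjusted p = 0.495), Zfp59 (2.32, adjusted p = 0.0598) and Zfp850 (1.91, adjusted p = 0.0843). Zfp628, Zfp579, Zfp524, Zfp865 and Zfp580 (4915193 to 5053723), none with the KRAB pattern, went the other way, with 2 that fell and a median of -0.93. Of these 2, Zfp579 had entered through progenitors alone and Zfp580 through both arms. The Zfp579 call was lost by DESeq2 (adjusted p = 0.102), and its difference was -1.33 without the O4G stem cell library. The sum over the run of Zfp628 to Zfp580 was 76.5 to 111 CPM in R9 progenitors and 37.9 and 43.7 CPM in stem cells.

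**Figure D3:**
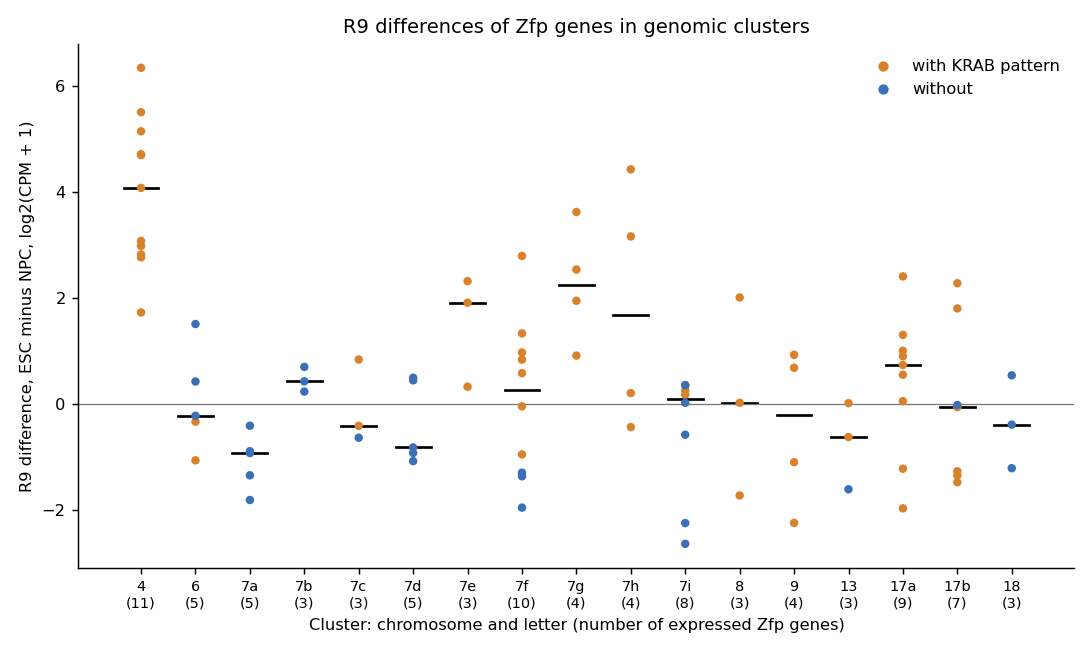
R9 difference of stem cells minus progenitors, log2(CPM + 1), for the members (points) of each of the 17 clusters, named by chromosome and a letter where a chromosome has several; lines mark medians and colours the KRAB pattern. The chromosome 4 cluster lies apart with a median of 4.08, and the cluster of Zfp628 to Zfp580 (7a) has a median of -0.93.

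The chromosome 4 cluster holds 14 Zfp genes, of which 11 are members: Zfp987, Zfp600, Zfp992, Zfp981, Zfp985, Zfp989, Zfp982, Zfp988, Zfp978, Zfp979 and Zfp984. All 11 carry the KRAB pattern, and 9 share over 50% of their 25-base words with another gene, so the values of single genes are uncertain. The R9 sum was 6.69 and 7.74 CPM in WT, 12.1 CPM in OKMS and 11.8 CPM in OKS progenitors, against 333 and 372 CPM in stem cells. All 11 rose in R9 with a median of 4.08. For 10 of them only the R10 stem cell mean had reached 5 CPM, so the rule had already tied their entry to stem cells, and the eleventh, Zfp979, had a progenitor mean of 5.03 CPM. With gene positions from GENCODE the cluster held 7 members, and its mean R9 stem cell sum was 189 CPM in place of 353 CPM. The run also holds 3 Zfp genes below the level of the rule. Of these Zfp991 (0.664 to 25.4 CPM on average) and Zfp534 (0 to 3.30 CPM) rose as well, while Zfp933 was at 2.16 and 2.82 CPM. Zfp990 and Zfp980, on the same chromosome before the cluster, rose too.

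Because these genes moved together, the stretch upstream of their starts was read from RefSeq (GRCm38.p6), which held 182 of the 225 members and 8 of these 11. The 5 genes below that come first share a 28-base word, GTCCAGAAGGAGTGGCTCTGAGGAACCA, found after their sequences were compared. Among 32851 windows of 250 bases upstream of RefSeq starts, read on both strands, it occurred in 8. These were the windows of the 5 genes, of Zfp980 and of Zfp534 and Rex2, all on chromosome 4. The last 3 below lack the full word. Each line gives 120 bases, 5′ to 3′ on the gene's strand, and capitals mark the shared word, a CCAAT box on either strand (CCAAT or ATTGG) and a GC box on either strand (GGGCGG or CCGCCC). The ATTGG and the GC box overlap where both are present.
Zfp987 (chr4:146097192-146097311, plus strand): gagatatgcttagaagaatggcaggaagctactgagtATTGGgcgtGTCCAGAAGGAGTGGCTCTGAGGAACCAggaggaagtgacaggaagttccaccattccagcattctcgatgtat
Zfp600 (chr4:146156707-146156826, plus strand): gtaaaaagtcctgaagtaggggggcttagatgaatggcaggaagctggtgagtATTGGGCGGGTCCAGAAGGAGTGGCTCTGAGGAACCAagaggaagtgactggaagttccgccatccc
Zfp988 (chr4:147305484-147305603, plus strand): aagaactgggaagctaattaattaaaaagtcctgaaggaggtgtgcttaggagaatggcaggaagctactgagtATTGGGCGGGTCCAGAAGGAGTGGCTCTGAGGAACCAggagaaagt
Zfp982 (chr4:147492297-147492416, plus strand): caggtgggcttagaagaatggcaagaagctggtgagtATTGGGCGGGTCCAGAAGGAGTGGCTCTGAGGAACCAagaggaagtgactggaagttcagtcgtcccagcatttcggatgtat
Zfp985 (chr4:147553157-147553276, plus strand): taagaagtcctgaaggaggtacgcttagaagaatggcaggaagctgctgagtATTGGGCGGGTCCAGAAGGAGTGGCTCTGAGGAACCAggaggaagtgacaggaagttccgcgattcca
Zfp981 (chr4:146514800-146514919, plus strand): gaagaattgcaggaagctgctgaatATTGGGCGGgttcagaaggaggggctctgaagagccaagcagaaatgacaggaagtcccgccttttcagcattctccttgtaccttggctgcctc
Zfp979 (chr4:147642509-147642628, minus strand): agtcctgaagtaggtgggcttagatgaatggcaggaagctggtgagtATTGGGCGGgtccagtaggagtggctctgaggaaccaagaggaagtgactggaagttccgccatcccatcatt
Zfp984 (chr4:147809789-147809908, minus strand): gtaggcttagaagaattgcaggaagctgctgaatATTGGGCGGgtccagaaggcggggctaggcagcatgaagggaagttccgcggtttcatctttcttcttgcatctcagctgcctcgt
In the 8 shown an ATTGG lies close before the position of the word, and in all but Zfp987 it runs into a GC box. RefSeq gave 11 starts for these genes, and 1 with an ATTGG is shown for each. The other 3, 1 of Zfp600 and 2 of Zfp982, held neither the word nor a CCAAT box in their 120 bases.

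A CCAAT box on either strand occurred in 9 of the 11 RefSeq windows of chromosome 4 members (81.8%), in 63.6% of windows of KRAB members, in 49.4% of all member windows and in 33.8% of all windows. A GC box (GGGCGG) occurred in 72.7%, 35.1%, 46.3% and 32.7%. A TATA box (TATAAA) occurred in 9.09%, 5.19%, 7.36% and 12.4%. The windows of the cluster are near-copies of each other and are not independent, and a match of letters is not a binding site.

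The time course in serum-LIF-dox was tested in R9 over both factor systems, as differences from day 0, which was in progenitor medium, so each difference also holds the change of medium. With 1 library per system at each day, the p-values weigh changes over days against the disagreement between OKMS and OKS, not against replicates. Differences in timing between the systems, as for Zfp296 below, enter that spread. Direction was taken as the sign of the largest of a gene's differences. By it 16 of 225 members rose and 8 fell (10.7% of all 19357 genes tested were called, 5.5% higher and 5.24% lower). The largest difference fell on day 20 for 14 of those that rose and 7 of those that fell. A pseudocount of 0.25 gave 9 higher and DESeq2 10, and edgeR gave 16 lower with 4573 of all genes called in place of 2078. Without day 2 limma called 7 higher. Without day 20 it called 2 members higher and 0 lower, with 6 lower at an unadjusted p under 0.05. With the KRAB pattern 13 were called higher and 1 lower, and without it 3 rose and 7 fell. The 1 called lower was Zfp979, at -2.81 on day 6 but 2.07 on day 20, so it ended above day 0. Of those 13, 11 had entered through stem cells alone. Among members at the level in both arms 2 rose and 1, Zfp979, was called lower with the pattern. Without it 2 rose and 2 fell. Summed mesenchyme markers were at 20.2 to 146 CPM in R9 progenitors and at 75.1 to 540 CPM in OKMS and 375 to 2422 CPM in OKS from day 2 to day 20. Of 5 trophoblast genes listed 3 were in the table, among them the keratins Krt7 and Krt18, and all 3 were also called higher in R9 stem cells. Summed trophoblast markers were at 0 to 1.94, 3.39 to 471 and 0.954 to 614 CPM, and astrocyte markers at 260 to 282, 52.9 to 837 and 123 to 1764 CPM, 2 of the 6 called higher and 2 lower. Their part in the members' changes was not tested.

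Zfp57 rose early in the course, although its OKMS value at day 2 still lay within the range of the R9 progenitors. In OKMS it stood at 10.8, 13.6, 43.8, 108, 155, 162 and 284 CPM at days 0, 2, 4, 6, 10, 14 and 20, and in OKS at 6.75, 26.7, 49.6, 54.9, 129, 136 and 158 CPM. The difference was largest at day 20, at 4.48 (limma F test, adjusted p = 0.000346). In the R9 libraries of both systems each day stood above the one before. This order was read in R9 alone and is not claimed for R10.

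Zfp296 followed another course. In OKMS it was at 0 up to day 4 and then at 21.8, 25.3, 38.0 and 91.1 CPM, while in OKS it was at 0 up to day 6 and then at 2.23, 0.827 and 65.4 CPM. Its largest difference was 6.29 (adjusted p = 0.0285). Zfp936 reached 9.85, 24.3 and 51.7 CPM at days 10, 14 and 20 in OKMS and 0, 3.31 and 20.8 CPM in OKS. Zfp992 (4.76), Zfp988 (4.53) and Zfp978 (4.50) had the next differences, all at day 20, and Zfp296, Zfp936, Zfp992, Zfp988 and Zfp978 lost the call without day 20. Zfp992 also lost it with a pseudocount of 0.25, with quantile normalization, by DESeq2 and without day 2, 4 or 6. Zfp936 and Zfp988 lost it with that pseudocount and Zfp988 without day 2, Zfp296 with quantile normalization and by DESeq2, and Zfp978 by DESeq2. Zfp36, tristetraprolin, which destabilises AU-rich mRNA, rose early instead. It went from 4.04 to 57.6 CPM between days 0 and 2 in OKMS and from 5.06 to 106 CPM in OKS, and had dropped to 13.5 and 48.1 CPM by day 20.

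The summed chromosome 4 cluster rose late. The difference between the systems in this sum was not tested. In R9 the OKMS sum was 12.1 CPM at day 0 and 2.26, 2.09, 9.55, 56.3, 153 and 305 CPM at days 2, 4, 6, 10, 14 and 20. In OKS it was 11.8 CPM at day 0 and 1.34, 1.91, 0, 11.2, 14.1 and 154 CPM. The R10 libraries, made in another way, gave 0.790, 2.13, 1.77, 29.7 and 151 CPM in OKMS at days 2, 4, 6, 10 and 18, and 2.24, 2.56 and 90.9 CPM in OKS at days 2, 6 and 18. In both library types the sum lay below its progenitor level at day 2, including WT cells in serum-LIF-dox (1.41 CPM in R9, 0.783 and 0.659 CPM in R10). R10 progenitors held 2.54 to 7.91 CPM. In the OKMS and OKS progenitors of R9 that level was mostly Zfp979, with the other members at or near 0. At day 2 in R9 the difference from day 0 was -1.96 for Zfp979. It was -0.62 for Zfp981 and Zfp982, -0.71 for Zfp985 and 0 for the other members of the cluster. Of the 11 members 9 rose over time and 1 was called lower, beside 5.5% and 5.24% of all genes. All 9 had entered through stem cells alone. With a pseudocount of 0.25 Zfp981, Zfp982, Zfp985, Zfp988, Zfp989 and Zfp992 lost the call. Without day 20 these lost it as well, as did Zfp978 and Zfp979. The member called lower was Zfp979, whose largest difference was -2.81 at day 6 and which stood at 72.6 and 26.6 CPM by day 20.

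**Figure D4:**
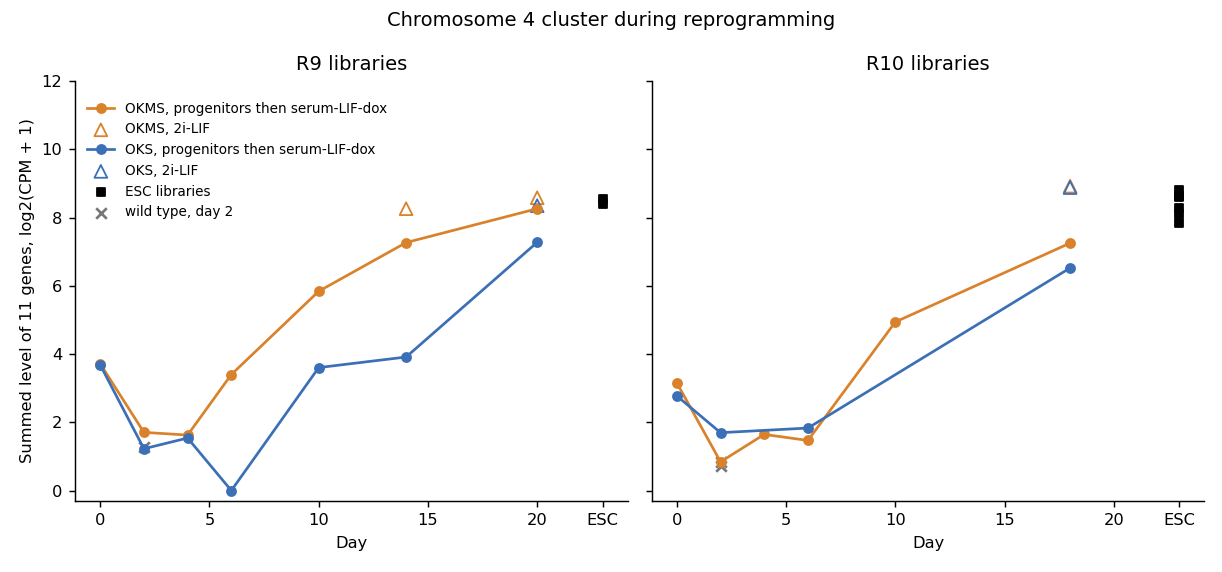
Summed CPM of the 11 members of the chromosome 4 cluster by day, as log2(CPM + 1), in R9 and R10, for OKMS and OKS from progenitors through serum-LIF-dox (lines), cultures in 2i-LIF (triangles), WT cells at day 2 (crosses) and stem cells (squares); each point is 1 library. The sum stays near or below its progenitor level up to day 6, a level that in R9 OKMS and OKS was mostly Zfp979. At day 10 in R9 it is 56.3 CPM in OKMS and 11.2 CPM in OKS, the latter still below the OKS progenitor level of 11.8 CPM. It is higher in 2i-LIF than in serum-LIF-dox in each of the 5 pairs.

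Among the members that fell over time, Zfp467 went from 37.7 to 0 CPM in OKMS and from 47.2 to 6.47 CPM in OKS between days 0 and 20 (-3.98, adjusted p = 0.0108). In OKS it was still at 51.3 CPM at day 10. Zfp768 (-3.22), Zfp362 (-2.68) and Zfp651 (-2.36) had their largest differences at day 20 as well. All 4 lost the call without day 20, with adjusted p of 0.226, 0.505, 0.254 and 0.376. Zfp651 also lost it with a pseudocount of 0.25, with quantile normalization and without day 2, 4, 6 or 10, and Zfp768 by DESeq2.

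OKMS and OKS, which differ by Myc in their names, were compared over 6 R9 day pairs. Each pair holds 1 library per system, so days stand in for replicates. The p-values measure how steady a difference was over days. Myc cannot be told apart here from other differences between the 2 sets of transfected cells. Of 214 members tested 5 were higher and 9 lower in OKMS, beside 18% of all 14277 genes called (6.93% higher and 11% lower). The 9 included members that are high in progenitors. Zfp651 was lower by 2.41 on the log2 scale (adjusted p = 0.00119), and at day 10 it stood at 8.44 CPM in OKMS and 60.2 CPM in OKS. Zfp521 differed by -1.50 (adjusted p = 0.00962), with 22.6, 12.5, 13.6, 4.22, 5.28 and 1.23 CPM in OKMS and 30.8, 33.4, 45.5, 46.8, 14.9 and 3.59 CPM in OKS from day 2 to day 20. OKS was the higher of the pair on every day. Zfp703 (-1.80), Zfp579 (-1.52) and Zfp467 (-1.47) completed the 5 largest. Without day 4 or day 14 the Zfp579 call was lost.

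The members higher in OKMS were Zfp296 (2.07 ± 0.66 SE, adjusted p = 0.0319), Zfp850 (1.80), Zfp365 (1.44), Zfp593 (1.18) and Zfp141 (1.04). Zfp296 lost its call without the day 6 pair (1.58, adjusted p = 0.123) or the day 14 pair (1.60, adjusted p = 0.109), and also with a pseudocount of 0.25, without the filter on low values and by DESeq2. Zfp365 stood at 17.0, 33.4, 23.2, 19.7, 17.9 and 22.2 CPM in OKMS and at 2.67, 4.77, 8.03, 15.6, 7.44 and 11.5 CPM in OKS, the lower of the pair on every day. Zfp141 lost its call with that pseudocount, without the filter on low values, by edgeR and DESeq2, and without the pair of day 2, 4, 6, 10 or 20. Zfp850 lost it with that pseudocount, without the filter, and without the pair of day 4, 6, 10 or 14. The count moved both ways, from 5 to 3 with that pseudocount and 2 without the filter, and to 11 with quantile normalization and 12 with median centring. Markers of other cells moved with the systems. In OKMS 5 of 6 astrocyte markers (median -1.97) and 2 of 4 mesenchyme markers tested (-1.38) were called lower. Called higher were 3 of 8 pluripotency markers (1.24) and the 2 genes tested of the 5 listed for trophoblast (2.81), a list that includes keratins. Their part in these differences was not tested.

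Medium and doxycycline without factors were read in WT cells. In R10, WT progenitors after 2 days in serum-LIF-dox were compared with WT progenitors in their own medium, 2 libraries each. Of 206 members tested 8 rose and 2 fell (4.85%), beside 26.8% of all 14688 genes (14.9% higher and 11.9% lower). The 2 libraries in progenitor medium are among the 11 whose levels chose the members, so the control arm is not independent of the rule. Quantile normalization gave 6 and median centring 7 members lower in place of 2. Leaving out any 1 of the 4 libraries left 0 or 1 member higher and 0 lower by limma (0 to 1141 of all genes called in place of 3940), with 6 to 10 higher and 2 to 9 lower at an unadjusted p under 0.05 where the count was 0. Of 5 primitive endoderm genes listed 3 were in the table and 1 was tested, and Gata6 was at 0 in all 4 libraries. Summed astrocyte markers went from 214 and 220 CPM to 2375 and 4385 CPM between these groups, mesenchyme markers from 6.67 and 18.7 to 84.2 and 214 CPM, and primitive endoderm markers from 4.13 and 5.74 to 72.8 and 161 CPM. Their part in the changes was not tested.

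Zfp185, an actin-associated LIM protein on chromosome X, went from 0 in both libraries to 8.61 and 8.57 CPM, at least 19.0-fold higher (3.26 ± 0.37 SE, adjusted p = 0.00385). In R9 it was at 0 in both WT progenitor libraries and at 15.6 CPM in the treated library. Zfp36 went from 6.99 and 4.59 to 22.7 and 35.9 CPM (2.15). Zfp703, a repressor of the NET family, went from 15.2 and 12.3 to 69.7 and 54.0 CPM (2.08), and Zfp521 from 14.6 and 11.8 to 54.8 and 35.6 CPM (1.68). Both were higher in progenitors than in stem cells in R9, so here they moved away from the stem cell level. Zfp395 (1.59) was the other of the 5 largest rises. Zfp850 (-1.84) and Zfp365 (-1.72) fell, the latter from 13.7 and 13.2 to 4.31 and 2.64 CPM. The Zfp850 call was lost by edgeR (adjusted p = 0.0542) and DESeq2 (0.144). In R9, with 1 treated library, all 10 had the same sign, with differences in size from 0.20 for Zfp521 to 4.05 for Zfp185. How often all genes called in R10 kept their sign there was not computed.

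The last comparison set 2i-LIF against serum-LIF-dox over 5 pairs of the same system, day and library type. As named here, only the serum arm holds doxycycline, the inducer of the factors. Differences of medium and of factor induction cannot be told apart in these pairs. Of 223 members 17 were higher and 7 lower in 2i-LIF, beside 12.3% of all 14935 genes (5.95% higher and 6.32% lower). With the KRAB pattern 12 were higher and 1 lower of 80, and without it 3 higher and 6 lower. Of the 17, 13 had entered through stem cells alone, which were grown in 2i-LIF, and these include the 5 largest rises named below. Of the 12 with the KRAB pattern 9 had done so. Among members at the level in both arms 3 were higher and 1 lower with the pattern, and 1 higher and 6 lower without it. Without 1 pair 8 to 16 were higher and 2 to 7 lower, with 8 higher without either R10 pair and 11 without R9 OKMS day 14 or OKS day 20, and DESeq2 gave 11 and 2. The 3 R9 pairs alone gave 4 higher and 1 lower. The 2 R10 pairs alone gave 3 higher and 0 lower by limma, with 6 lower at an unadjusted p under 0.05.

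Zfp264 rose in every pair, from 1.06 to 7.33 CPM in R9 OKMS day 14, 0 to 6.45 CPM in R9 OKMS day 20, 0 to 5.82 CPM in R9 OKS day 20, 1.48 to 15.9 CPM in R10 OKMS day 18 and 1.28 to 9.39 CPM in R10 OKS day 18. The difference was 2.53 ± 0.46 (SE, adjusted p = 0.0011). In the same order Zfp981 went from 24.3 to 52.5, 44.3 to 68.8, 13.7 to 64.0, 11.9 to 70.5 and 6.40 to 111 CPM (2.05, adjusted p = 0.000808). In these 5 pairs no serum-LIF-dox library reached the lowest 2i-LIF value of either gene. Zfp951 (1.92) rose in all 5 pairs as well, and Zfp989 (1.92) and Zfp640 (1.82) were the other 2 of the 5 largest. Zfp989 lost its call without any 1 of 3 of the 5 pairs, and Zfp640 without any 1 of 3 and by DESeq2.

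Zfp36 was the largest fall. It went from 27.4 to 1.22, 13.5 to 3.22, 48.1 to 3.49, 28.2 to 8.82 and 46.1 to 3.13 CPM (-2.80 ± 0.42 SE, adjusted p = 0.000184) beside 3.87 to 6.56 CPM in R10 stem cells. Zfp462 went from 26.4 to 13.4, 24.6 to 7.52, 24.4 to 11.6, 22.3 to 8.82 and 24.3 to 6.26 CPM (-1.31, adjusted p = 0.00913). In the 3 R9 pairs its serum-LIF-dox values lay within 24.4 to 26.4 CPM, beside 22.9 to 25.3 CPM in R9 progenitors. The 2 R10 values are of another library type and are not compared with these progenitors. In the 2 R10 pairs alone Zfp264, Zfp951, Zfp36 and Zfp462 missed the threshold (adjusted p = 0.194, 0.132, 0.116 and 0.277), as did Zfp462 in the 3 R9 pairs (0.0896). Zfp365 (-1.54), Zfp524 (-1.41) and Zfp532 (-1.22) were also called lower. All 3 calls were lost by DESeq2, and without any 1 of 3 pairs for Zfp365 and of 4 pairs for Zfp524 and Zfp532.

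**Figure D5:**
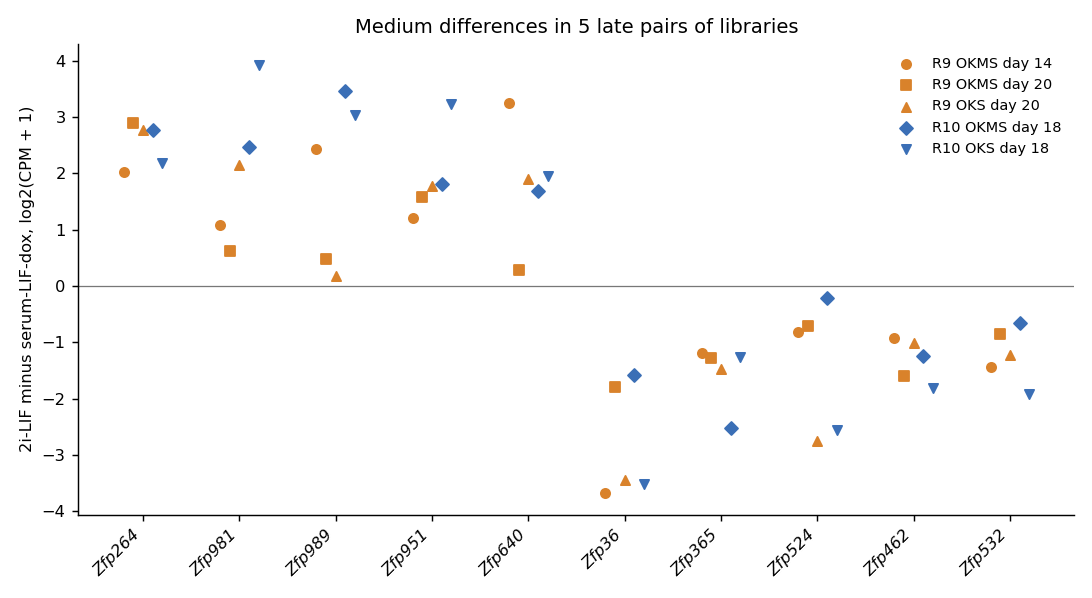
Difference of 2i-LIF minus serum-LIF-dox, log2(CPM + 1), in each of the 5 pairs (points, coloured by library type) for the 5 members with the largest rise and the 5 with the largest fall. Zfp264 and Zfp981 rise and Zfp36 and Zfp462 fall in all 5 pairs.

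In the chromosome 4 cluster 5 of 11 members were higher in 2i-LIF, beside 5.95% of all genes, and the median difference was 1.44. All 5 had entered through stem cells alone, which were grown in 2i-LIF. Zfp978 lost its call with a pseudocount of 0.25. The sum over the cluster went from 153 to 305 CPM in OKMS day 14, 305 to 382 CPM in OKMS day 20 and 154 to 325 CPM in OKS day 20 in R9. In R10 day 18 it went from 151 to 483 CPM in OKMS and from 90.9 to 469 CPM in OKS. R10 stem cells held 228 to 444 CPM, the lowest in R1 replicate 3. Markers of other cell states differed between the media as well. Summed Zscan4c and Zscan4d, markers of a 2-cell-like state, stood at 0 to 19.7 CPM in serum-LIF-dox and 8.15 to 105 CPM in 2i-LIF, trophoblast markers at 174 to 614 and 12.9 to 31.3 CPM, and mesenchyme markers at 72.7 to 406 and 9.67 to 23.5 CPM. Astrocyte markers stood at 52.9 to 123 and 11.6 to 21.2 CPM, and 5 of 8 pluripotency markers were called higher in 2i-LIF (median 1.17). Their part in the members' changes was not tested.

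The corepressor machinery that KRAB proteins recruit was read from a list of 20 genes, 19 of which were in the table. In R9 stem cells 4 were higher and 1 lower (17.6% and 18.4% of all genes), with a median of 0.37 beside -0.07 over all genes. Trim28, the corepressor itself, was at 369 to 467 CPM in progenitors and 1449 and 1683 CPM in stem cells, a difference of 1.97 (adjusted p = 0.000106). In R10 its difference was 0.98, under the fold limit. Uhrf1 (1.86), Morc3 (1.70) and Mphosph8 (1.03) were also higher and Pphln1 (-1.48) lower, while Setdb1 differed by 0.69. After 2 days in serum-LIF-dox 8 of the list were called lower in WT cells (11.9% of all genes), among them the replication-linked genes Uhrf1 (-4.87), Chaf1b (-4.86) and Dnmt1 (-2.39), and Trim28 (-1.18). Without any 1 of these 4 libraries limma called 0 to 2 of the list lower, with 5 to 10 lower at an unadjusted p under 0.05. Over the time course Trim28 (1.71) and Smarcad1 (1.97) rose, and without day 2 or day 20, or with quantile normalization, none of the list did by limma. In OKMS against OKS 6 were higher (6.93% of all genes), Trim28 by 1.23, and in 2i-LIF Uhrf1 was higher by 1.16.

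Long reads also give the transcripts of each member. Shares of a gene's summed TPM (transcript abundance, as deposited by the authors) could be read in 84 of 224 members with several transcripts and at least 5 TPM. In 5 of them a transcript's mean share moved by at least 30 points the same way in R9 and R10, namely Zfp229, Zfp410, Zfp865, Zfp870 and Zfp931. How often this occurs among genes in general was not computed, so nothing is read from the count. Zfp229, on chromosome 17, exchanged its main transcript between models of 420 and 515 spliced bases. Whether either of them is full length was not tested. A 3-exon transcript starting at 21733682 held 80.4% ± 18.7 (SD, n = 4) of its TPM in R9 progenitors and 0 in stem cells, and 77.0% and 1.94% in R10. Another 3-exon transcript starting at 21730680 and ending at the same base held 0 in progenitors and 80.9% ± 17.5 (SD, n = 2) in R9 stem cells, and 76.9% in R10. The gene as a whole rose by 2.41 on the log2 scale in R9. In Zfp931 on chromosome 2 a 4-exon transcript (178068490 to 178078489) went from 0 to 63.0% in R9 and from 0 to 32.1% in R10. The other 3 rest on few libraries or vary widely. Zfp865 and Zfp870 had 1 R9 stem cell library above the limit, and the Zfp410 transcript had 0 to 61.2% between the R9 stem cell libraries. These are descriptions without a test.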

How the data were processed

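Gene values were CPM and transcript values TPM, as deposited by the authors in tables named after IsoQuant. Reads were aligned with minimap2 2.24-r1122 to mm10, per the submitters' processing notes. The authors' deposited CPM were whole multiples of 1 read per library for 100% of 711452 values within 0.02 reads, which gave the depths. Whether counting used strand is not given in the sources used here. In the gene table, 13 columns matched no sample and were not used.

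For the tests, log2(CPM + 1) went into limma 3.58.1 (R 4.3.3), two-sided, with Benjamini-Hochberg adjustment over all genes that passed a filter: 1 CPM or more in a number of libraries equal to the size of the smaller arm (2 for the time course). This scale understates the change of low genes. Alternatives included edgeR 4.0.16 and DESeq2 1.42.0 on the recovered reads. The fits were tested on simulated data. Pairs were blocked by day, or by system, day and library type. The text names the 10 largest R9 changes in each direction, the 5 largest of the other comparisons, the 5 members of highest CPM, role list members and members of described clusters, the last and Zfp36 over time, Zfp593 and Zfp185 chosen after their values were seen. Members and lists were chosen with earlier results of these data known. Positions are outer bounds of the authors' deposited transcripts (1-based, mm10). The KRAB pattern was F-x-D-V-x-(V, I or L)-x-F-x-x-x-E-W.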

Additional observations from a re-analysis of the deposited data

Results flagged for a closer look

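In groups of 4 to 7 libraries, 165 groups of named members were searched for a library far from the others, and 17 were found. Chance alone flags about 1 in 20 groups of continuous values, a rate that need not hold for the 7 of the 17 in which 1 read stands against 0. The R10 stem cell library R1 replicate 3, the 1 without a library name, stood highest for 5 members: Zfp106 at 322 CPM (others 213 to 237), Zfp593 at 66.1, Zfp598 at 135 (others 42.2 to 67.3), Zfp609 at 41.1 (others 17.4 to 24.7) and Zfp622 at 43.7 CPM. It also had the lowest mitochondrial share, 0.124%, and its part in these values was not tested. Zfp936 was highest in R1 replicate 2, at 80.7 CPM beside 62.4 to 69.1 CPM.

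Among R10 progenitors WT replicate 2 was highest for Zfp579 (25.1 CPM, others 12.1 to 13.4) and Zfp651 (35.9 CPM, others 19.8 to 21.1). It was also the only one above 0 for Zfp988 (0.318 CPM), as was OKS for Zfp819 (0.584 CPM) and OKMS for Zfp992 (0.439 CPM). Among R9 progenitors OKS was highest for Zfp264 (8.43 CPM, others 1.34 to 1.94) and OKMS for Zfp319 (18.8 CPM, others 14.5 to 15.2). WT replicate 1 was the only one above 0 for Zfp296 and Zfp978 (1.34 CPM each), OKMS for Zfp982 (1.35 CPM) and OKS for Zfp985 (1.69 CPM). For the 7 members above 0 in a single progenitor library, that value is 1 read.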

How the results depend on the processing

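Counts of members higher and lower, in that order, ranged as follows when each library or pair was left out: 24 to 44 and 19 to 40 for R9 stem cells against progenitors, 50 to 58 and 36 to 42 in R10, 0 to 1 and 0 for WT medium, 2 to 18 and 0 to 8 over time, 2 to 9 and 7 to 11 for OKMS against OKS, and 8 to 16 and 2 to 7 for 2i-LIF. The R9 counts were 28 and 19 without the O4G and 24 and 24 without the R1 stem cell library. With members of mean CPM at least 10 alone, 25 were lower in R9, 21 lower in R10, 2 higher for WT medium and 4 lower for OKMS against OKS. A pseudocount of 0.25 gave 9 higher over time, 3 higher for OKMS against OKS and 4 lower for 2i-LIF. Without a filter on low values 2 were higher for OKMS against OKS. Quantile normalization and median centring gave 6 and 7 lower for WT medium and 11 and 12 higher for OKMS against OKS. edgeR gave 16 lower over time and 8 higher for OKMS against OKS. DESeq2 gave 1 lower for WT medium, 10 higher over time, and 11 higher and 2 lower for 2i-LIF. Over time, 2 were higher and 0 lower without day 20, and 7 higher without day 2. The R9 pairs alone gave 4 and 1 and the R10 pairs alone 3 and 0 for 2i-LIF. WT medium in R9, 1 library against 2, gave 2 and 0, and the replicate block gave 17 and 8, with 5605 genes called in place of 3940 over all genes. The libraries share only a number there, and the correlation of the deviations of same-numbered libraries was 0.47 over 14688 genes. Single named members kept direction and side of the threshold in 4299 alternative values, lost the call in 251, gained it in 73 and reversed in 2, Zfp593 (1.06) and Zfp638 (-0.20) in R10, both for R1 replicate 3 against progenitors. The causes were not tested. Cluster membership in all (86 to 114 members) and a looser KRAB pattern (29 higher and 11 lower in R9) stayed within 1.5 times, but the chromosome 4 cluster had 7 members in place of 11 with GENCODE positions. The looser pattern matched 85 members in place of 80, so these counts could move only a little. It cannot show how KRAB proteins missed by both patterns would change the split. Median centring moved the median of all genes by 0.16 in R9, 0.23 in R10, -0.15 for WT medium, -1.08 over time and 0.15 for OKMS against OKS.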
